A study of Mus musculus with 4 samples.

Results

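Collagen genes of the mouse nasal mucosa were taken as all genes whose symbol has the form Col, a number, a and a number. All 44 such genes listed by RefSeq were on the array, among 19938 genes with a probe set of their own, and 38 of them reached the median of all values, a log2 value of 6.52, in at least 1 array. Total RNA from the mucosa lifted off the cartilage and bone of the septum and turbinates was measured in 4 groups with 1 array each. These were Duox2-/- mice given flagellin, Duox2-/- mice given PBS, wild-type mice given flagellin and wild-type mice given PBS. Mice were 8 weeks old, their strain is labelled C56BL/6, and tissue was taken 4 h after 25 ul went into each nostril, with flagellin at 5 ug/ml. The sources used here do not say how the Duox2 allele was made or how many mice an array holds. Duox2, an oxidase gene of epithelial surfaces, had log2 values of 5.50 in Duox2-/- flagellin, 5.23 in Duox2-/- PBS, 5.12 in wild-type flagellin and 4.95 in wild-type PBS. The targeted gene was thus dim in all 4 arrays and not lower under the knockout label, so it does not check the label; the probe set may lie outside the altered stretch. The name Duox2-/- below is that of the label.

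Collagens are the main structural proteins outside cells, built as triple helices wound from chains with a glycine repeat. Fibrillar collagens form the banded fibrils of connective tissue and bone, laid down mostly by fibroblasts and osteoblasts. Network collagens of type IV form the sheet under epithelia and around vessels, muscle and nerve fibres, and anchoring collagens tie the epithelium to it. A separate group of fibrillar, fibril-surface and network chains makes up cartilage, which stiffens the nasal septum. Other families coat fibrils, form beaded microfilaments or span cell membranes.

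All values are log2 RMA values of the authors, and a difference of 1 is 2-fold. Probe sets differ in brightness, so levels are compared between arrays within a gene and not between genes. With 1 array per group no spread between animals was measured and no difference between 2 arrays has a p-value. The robust SD over the 12471 genes bright enough to be counted gives the usual size of a difference. It was 0.23 for flagellin minus PBS in Duox2-/-, 0.15 for the same in wild type, 0.29 for Duox2-/- minus wild type after flagellin and 0.21 under PBS. Median log2 values of the arrays ranged from 6.48 to 6.56, and the interquartile range was 2.43 and 2.54 in the Duox2-/- arrays against 2.73 and 2.79 in the wild-type arrays. Among fixed marker lists the mean level of 10 olfactory neuron genes was 10.3 to 10.6 and that of 11 ciliated and secretory genes 8.75 to 9.03 in the 4 arrays. All 10 olfactory genes were higher after flagellin in Duox2-/-, with a median of 0.35, and 8 of 10 in wild type, with a median of 0.06. Of the 11 ciliated and secretory genes 10 were lower in Duox2-/- than in wild type under PBS, with a median of -0.26, and 8 after flagellin, with a median of -0.13. Of the 12471 genes 7197 were lower in Duox2-/- under PBS and 8333 after flagellin. Higher after flagellin were 4718 of the 12471 in Duox2-/- and 6176 in wild type.

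The fibrillar chains of connective tissue were lowest in wild-type PBS and, but for Col5a3, highest in Duox2-/- PBS. Col1a1, the main chain of type I collagen, had log2 values of 12.77 and 12.98 in Duox2-/- flagellin and PBS, against 12.79 and 12.57 in wild-type flagellin and PBS. Its partner chain Col1a2 had 12.44 and 12.82 in the Duox2-/- arrays in that order, against 12.63 and 12.44 in the wild-type arrays. Col3a1, which forms fine fibrils in elastic and vascular tissue, had 9.79 and 10.33, against 10.08 and 9.74. The Duox2-/- PBS array was the highest of the 4 for each of these genes, followed by wild-type flagellin, Duox2-/- flagellin and wild-type PBS in all 3 genes. Some steps of this order were far under the robust SDs given above. Col1a1 had 12.7855 in wild-type flagellin and 12.7704 in Duox2-/- flagellin, and Col1a2 had 12.4385 in Duox2-/- flagellin and 12.4359 in wild-type PBS. Col5a2, a chain of the type V collagen that starts fibrils, had 8.69 and 9.37 in Duox2-/- flagellin and PBS, against 8.86 and 8.65 in wild-type flagellin and PBS. Col5a1, the other main type V chain, had 7.75 and 7.95, against 7.51 and 7.32. Here both Duox2-/- arrays were above both wild-type arrays. How many of all genes were separated in this way was not counted, here or for the genes below. Col24a1, a fibrillar collagen of bone and cornea, was likewise higher in both Duox2-/- arrays, at 6.995 and 7.39, against 6.82 and 6.68. Col5a3, a minor type V chain, did not share the peak, with 6.93 and 6.88 in Duox2-/- flagellin and PBS, against 6.50 and 6.46 in wild-type flagellin and PBS.

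**Figure D1:**
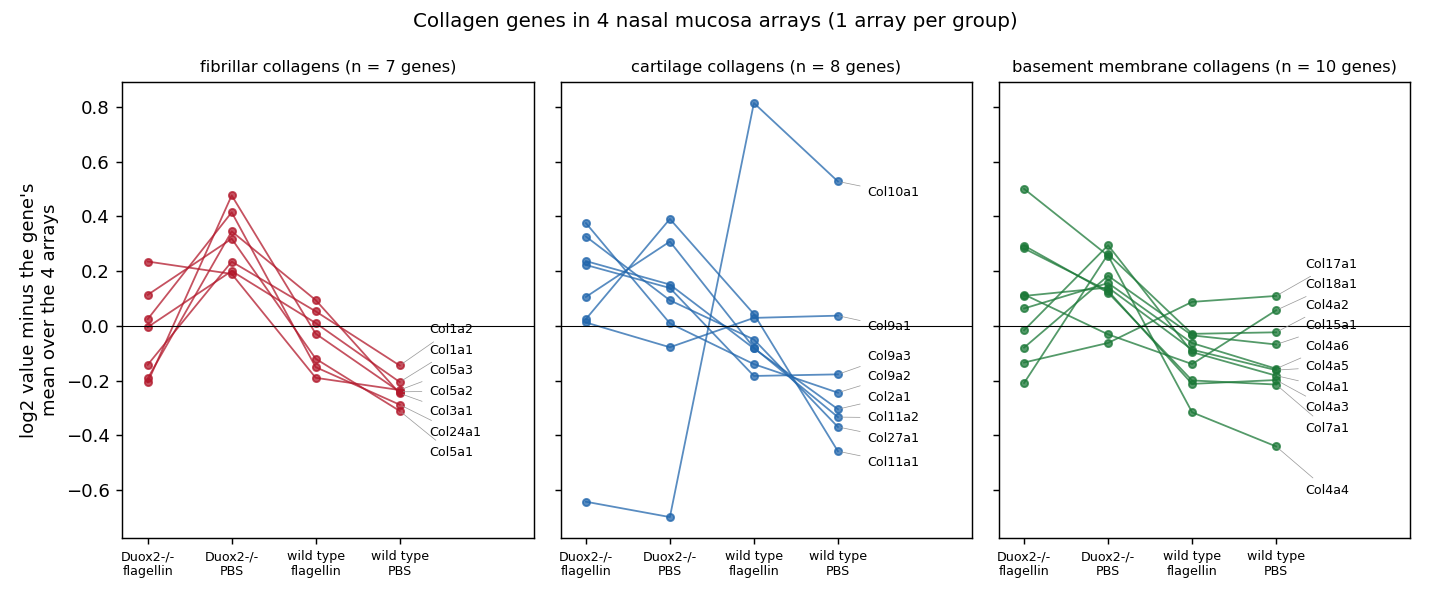
Log2 value of each fibrillar, cartilage and basement membrane collagen gene in the 4 arrays, minus the gene's own mean over them; each line is 1 gene and each point 1 array. Fibrillar chains other than Col5a3 peak in Duox2-/- PBS, and Col10a1 stands apart with values of 6.61 and 6.56 in the Duox2-/- arrays against 8.07 and 7.78 in the wild-type arrays.

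The cartilage chains did not move as 1 group. Col2a1, the main collagen of hyaline cartilage, had 8.01 and 7.92 in Duox2-/- flagellin and PBS, against 7.69 and 7.47 in wild-type flagellin and PBS. Col11a1, which sits inside cartilage fibrils and is also made outside cartilage, had 8.63 and 8.99, against 8.64 and 8.14, so that it peaked in Duox2-/- PBS as the type I and type III chains did. Its partner Col11a2 had 8.12 and 8.33, against 7.94 and 7.69. The type IX chains, which coat cartilage fibrils, differed among themselves. Col9a1 had 7.76 and 7.67 in Duox2-/- flagellin and PBS, against 7.78 in each wild-type array, and thus hardly varied. Col9a2 had 7.69 and 7.32, against 7.17 and 7.07, and Col9a3 had 7.54 and 7.45, against 7.13 and 7.14. For Col9a2 and Col9a3 both Duox2-/- arrays were above both wild-type arrays. Col27a1, a fibrillar collagen of growing cartilage, had 7.89 and 7.66, against 7.52 and 7.20.

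Col10a1, the short network collagen of hypertrophic cartilage, was the single collagen gene more than 2-fold apart in any comparison. Its log2 values were 6.61 and 6.56 in Duox2-/- flagellin and PBS, against 8.07 and 7.78 in wild-type flagellin and PBS. The Duox2-/- values were 0.364 times those of wild type after flagellin and 0.427 times under PBS. Nt5dc1, which overlaps Col10a1 in RefSeq, had 7.90 and 8.11 in the Duox2-/- arrays, against 8.22 and 8.39 in the wild-type arrays. Of 15 fixed chondrocyte genes 12 were lower in Duox2-/- after flagellin, with a median of -0.59, but 8 were lower and 7 higher under PBS, with a median of -0.17. The largest difference above 0 under PBS was that of Sox6, a transcription factor of cartilage, at 0.53. Of the 12471 genes bright enough to be counted 8333 were lower in Duox2-/- after flagellin, 206 of them at least 2-fold. Under PBS 7197 were lower, 35 of them at least 2-fold. More than 2-fold lower in both treatments were 2 of the 15 chondrocyte genes. Cytl1, a secreted protein of cartilage, had 6.85 and 6.91 in Duox2-/- flagellin and PBS, against 9.12 and 8.26 in wild-type flagellin and PBS. Ucma, a matrix protein of cartilage, had 5.67 and 5.92, against 8.03 and 6.99. Acan, the main cartilage proteoglycan, had 5.82 and 6.14, against 6.65 and 6.45. The part of carried cartilage in the Col10a1 values was not tested.

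Sequence before the start site is shown for Col1a2 and Col3a1, partners in connective tissue fibrils, for Col11a1, whose values followed theirs, and for Col10a1, which did not; the genes were picked after their values were seen. Each run is the 250 bases before the RefSeq start in GRCm38.p6, 5′ to 3′ on the gene's strand. Capitals mark the CCAAT box (searched as CCAAT), the TATA box (searched as TATAAA) and the GC box (searched as GGGCGG) on either strand.
Col1a2 (chr6:4505368-4505617, plus strand): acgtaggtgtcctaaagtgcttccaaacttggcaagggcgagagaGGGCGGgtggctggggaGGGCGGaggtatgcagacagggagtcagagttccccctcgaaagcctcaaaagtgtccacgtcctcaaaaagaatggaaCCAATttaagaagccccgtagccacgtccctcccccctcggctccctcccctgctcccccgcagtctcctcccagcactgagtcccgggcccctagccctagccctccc
Col3a1 (chr1:45311288-45311537, plus strand): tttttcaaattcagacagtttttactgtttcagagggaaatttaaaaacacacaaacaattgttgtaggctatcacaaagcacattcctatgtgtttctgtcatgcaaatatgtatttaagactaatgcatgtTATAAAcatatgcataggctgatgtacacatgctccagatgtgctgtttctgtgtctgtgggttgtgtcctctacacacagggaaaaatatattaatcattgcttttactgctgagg
Col11a1 (chr3:114030290-114030539, plus strand): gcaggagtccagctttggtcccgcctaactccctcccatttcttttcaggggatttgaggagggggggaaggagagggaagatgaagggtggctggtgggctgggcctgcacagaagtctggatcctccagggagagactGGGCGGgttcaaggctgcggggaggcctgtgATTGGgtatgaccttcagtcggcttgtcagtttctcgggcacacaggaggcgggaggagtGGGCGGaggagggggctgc
Col10a1 (chr10:34389731-34389980, plus strand): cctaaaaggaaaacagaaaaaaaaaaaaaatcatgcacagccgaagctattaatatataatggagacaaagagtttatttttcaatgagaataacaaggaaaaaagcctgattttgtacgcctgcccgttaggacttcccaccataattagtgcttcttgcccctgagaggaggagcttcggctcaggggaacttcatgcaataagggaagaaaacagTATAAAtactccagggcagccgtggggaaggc
Col1a2 has a CCAAT box with its first base 109 bases before the start and GC boxes at 205 and 188. Col11a1 has a CCAAT box on the opposite strand at 79 and GC boxes at 110 and 19. Col10a1 has a TATA box at 32 and Col3a1 at 117. No matches in the 4 runs overlap. Among 32851 windows of this length 33.8% hold a CCAAT box, 12.4% a TATA box and 32.7% a GC box. Of 38 windows of 35 collagen genes 13 hold a CCAAT box, 5 a TATA box and 22 a GC box. These matches describe the letters only. Col1a1, Col2a1, Col4a3, Col5a2, Col9a3, Col12a1, Col14a1, Col22a1 and Col26a1 have no entry there.

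Among basement membrane collagens, the 2 widespread type IV chains peaked in Duox2-/- PBS, as did Col15a1, Col4a5 and the dim Col4a6. Flagellin minus PBS in Duox2-/- was only -0.03 for Col4a5 and -0.09 for Col4a6. In 6 of the 10 genes Duox2-/- was above wild type in both treatments, as in 39.8% of all genes. Col4a1 and Col4a2, which build the network of nearly all basement membranes, lie on opposite strands of chromosome 8, where their RefSeq starts (11312826 for Col4a1 on the minus strand and 11312805 for Col4a2 on the plus strand, GRCm38.p6) overlap by position and are 21 bases apart. Col4a1 had 7.39 and 7.70 in Duox2-/- flagellin and PBS, against 7.31 and 7.23 in wild-type flagellin and PBS. Col4a2 had 7.25 and 7.72, against 7.43 and 7.44. Both genes had their highest value in Duox2-/- PBS. Col4a3 and Col4a4, partners of Col4a5 in the network of specialised membranes, were dim and higher in both Duox2-/- arrays. Higher values in Duox2-/- were commoner among dim genes in general. Under PBS 56.3% of all measured genes were above 0, against 42.3% of those past the filter. After flagellin these shares were 50.6% and 33.2%. Col4a3 had 6.37 and 6.22, against 5.88 and 5.89, and Col4a4 had 6.37 and 6.12, against 5.55 and 5.42. Col4a5 had 6.86 and 6.90, against 6.67 and 6.59, and the dim Col4a6 had 5.82 and 5.91, against 5.69 and 5.60. Col7a1, the anchoring fibril collagen under stratified epithelium, had 7.45 and 7.28, against 6.95 and 6.94. Col17a1, the transmembrane collagen by which basal keratinocytes hold to the membrane, ran the other way with 7.09 and 7.16 in Duox2-/- flagellin and PBS, against 7.31 and 7.33 in wild-type flagellin and PBS. Its differences of -0.22 after flagellin and -0.17 under PBS were within the robust SDs of 0.29 and 0.21. Beside this, the basal keratin gene Krt5 had 8.26 and 9.38 in the Duox2-/- arrays, against 10.55 and 10.40 in the wild-type arrays. Of 12 basal and squamous genes 11 were lower in Duox2-/- after flagellin and 11 under PBS, with median differences of -1.95 and -0.73. Of the 12471 genes bright enough to be counted 8333 were lower after flagellin and 7197 under PBS. The part of the basal and squamous genes in the Col17a1 values was not tested. Col15a1 and Col18a1, whose ends yield fragments that restrain vessel growth, had values from 6.69 to 6.95 and from 6.87 to 7.13 over the 4 arrays.

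The remaining families hold the other strong movers. Col6a3, the long chain of the beaded microfilaments around cells, had 8.64 and 9.17 in Duox2-/- flagellin and PBS, against 8.48 and 8.27 in wild-type flagellin and PBS. Its partners were Col6a1, with 8.30 and 8.61, against 8.59 and 8.35, and Col6a2, with 7.69 and 7.95, against 7.64 and 7.55. All 3 chains of the classical type VI trimer peaked in Duox2-/- PBS, while the later-found Col6a5, Col6a6 and the dim Col6a4 did not. For Col6a1 the step was far under the robust SDs, with 8.608 in Duox2-/- PBS and 8.587 in wild-type flagellin. Col6a6 had 7.28 and 7.16 in the Duox2-/- arrays, against 6.44 and 6.54 in the wild-type arrays, and its dimmer second probe set had the same order. Col6a5 had 6.79 and 6.48, against 6.20 in each wild-type array, but its dimmer second probe set differed by -0.07 after flagellin, where the brighter one differed by 0.59. Col12a1, which coats fibrils in tendon and bone sheath, had 9.37 and 9.88, against 9.33 and 9.19. Col14a1, a fibril-coating collagen of mature connective tissue, had 8.30 and 8.89, against 9.02 and 8.83, and was lowest in Duox2-/- flagellin. Col22a1, found at junctions of muscle with tendon, had 7.67 and 7.62, against 7.10 and 6.96. Col26a1 had 7.53 and 7.18, against 6.78 and 6.68. In both genes both Duox2-/- arrays were above both wild-type arrays, but the share of all genes separated in this way was not counted.

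Flagellin minus PBS in the Duox2-/- arrays asks how the bacterial protein shifts collagen genes in mice labelled Duox2-/-. The fibrillar chains other than Col5a3 were lower after flagellin, with Col5a2 at -0.68, Col3a1 at -0.54 and Col1a2 at -0.38. Fibril-coating and microfilament chains were lower as well, at -0.59 for Col14a1, -0.53 for Col6a3 and -0.51 for Col12a1. Type IV chains stood at -0.47 for Col4a2 and -0.31 for Col4a1. Most cartilage chains were slightly higher, with Col9a2 at 0.37 and Col27a1 at 0.23, while Col11a1 was at -0.37. Col2a1 and Col9a1 were at 0.09. Col26a1 was at 0.35, Col23a1 at 0.31, Col6a5 at 0.30 and Col7a1 at 0.17, against Col1a1 at -0.21 and Col17a1 at -0.07. Of the 44 genes 23 were above 0, where 48.7% of all genes were. Over all 44 genes 5 were lower by at least 0.5, where 4.12% of all 19938 genes were, and 0 were higher by 0.5, where 2.56% were. The 5 were Col5a2, Col14a1, Col3a1, Col6a3 and Col12a1. None of the 38 bright genes was 2-fold apart, against 0.682% of 12471. The median was -0.38 for the 7 fibrillar, 0.09 for the 8 cartilage and -0.05 for the 10 basement membrane genes, and -0.01 over all genes. In bulk tissue fewer cells of a type and less RNA per cell cannot be told apart.

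In wild type the same comparison asks for the response with the gene intact, and the fibrillar chains were slightly higher in it. Col3a1 was at 0.34, Col1a1 at 0.22, Col5a2 at 0.21 and Col1a2 at 0.20, and all 7 fibrillar genes were above 0. Of all 44 collagen genes 31 were, where 52.1% of all genes were. Col11a1 was at 0.50, the 1 collagen gene past 0.5, where 3.55% of all genes were higher by that size, and 0 were lower by it, where 0.928% were. Of the other cartilage chains, Col27a1 was at 0.32, Col10a1 at 0.29 and Col11a2 at 0.25. Col6a1 was at 0.24, Col2a1 at 0.22 and Col4a1 at 0.09. Close to 0 were Col7a1 at 0.01, Col9a1 and Col4a2 at -0.01, Col17a1 at -0.02, Col23a1 at -0.04 and Col20a1 and Col25a1 at -0.05. Col18a1 was the lowest at -0.20, before Col8a2 at -0.17 and Col6a6 at -0.10. None of the 38 bright genes was 2-fold apart, against 0.978%. Medians were 0.20 for fibrillar, 0.24 for cartilage and 0.02 for basement membrane genes, and 0.01 over all genes.

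**Figure D2:**
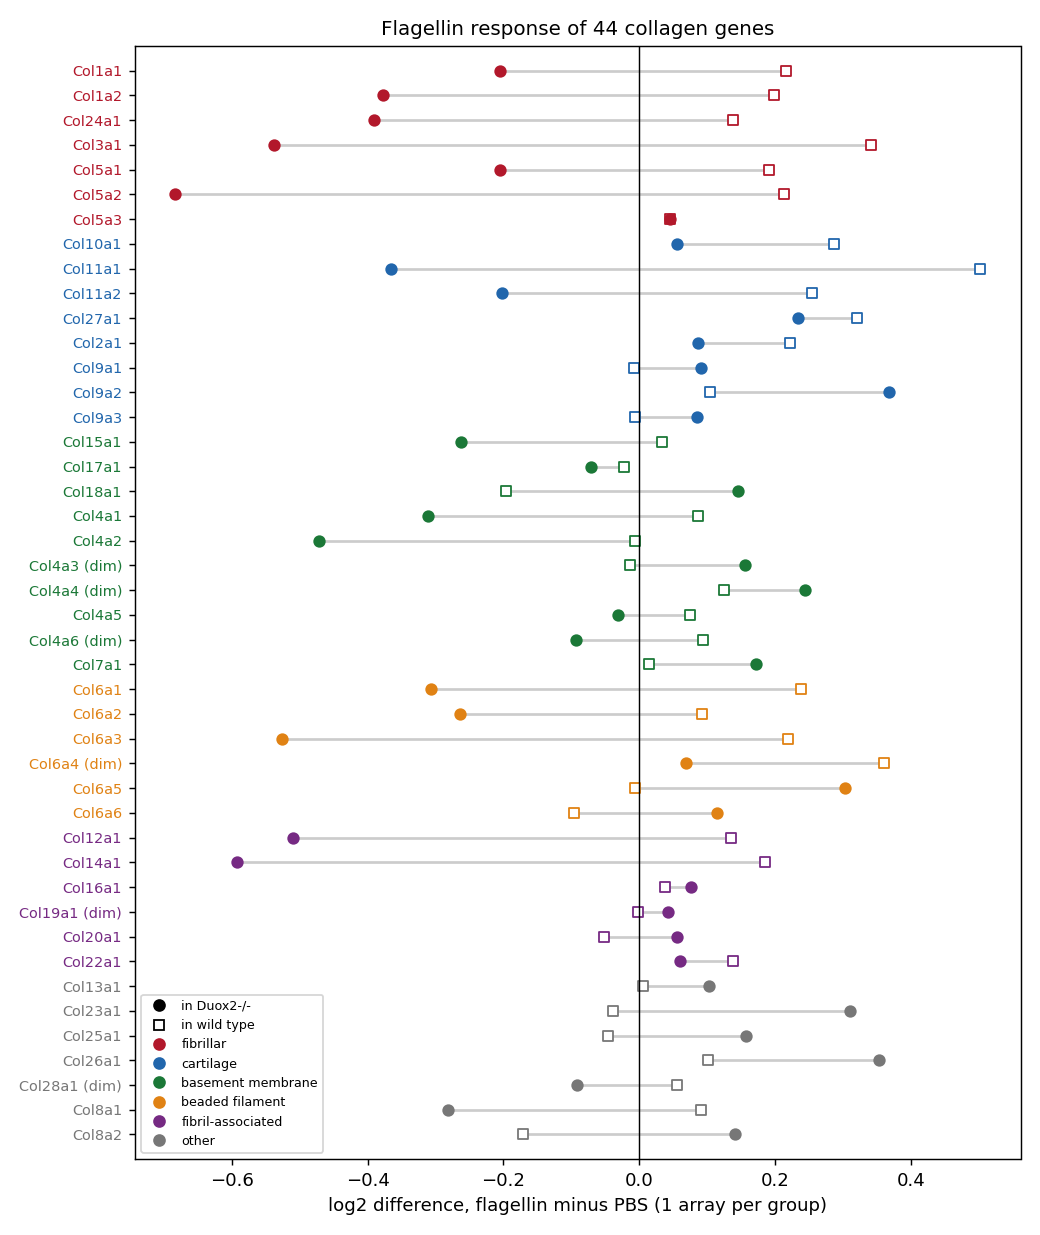
Log2 difference of flagellin minus PBS for each of the 44 collagen genes, in Duox2-/- (filled circles) and in wild type (open squares), coloured by class; each difference rests on 1 array per group, and genes marked dim stayed under 6.52. Col5a2 at -0.68 and 0.21 and Col3a1 at -0.54 and 0.34 lie on opposite sides of 0, while Col9a2, Col26a1 and Col23a1 are highest in Duox2-/-.

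The difference of the 2 responses, Duox2-/- minus wild type, asks whether the genotypes answered alike. It was negative for Col5a2 at -0.90, Col3a1 at -0.88, Col11a1 at -0.87, Col14a1 at -0.78, Col6a3 at -0.74, Col12a1 at -0.64 and Col1a2 at -0.58. Of the 44 genes 9 were at -0.5 or below, where 7.86% of all genes were, and 0 at 0.5 or above, where 3.96% were. The other 2 of the 9 were Col6a1 at -0.54 and Col24a1 at -0.53. Below 0 were 26 genes and above 0 were 18, where 47.1% of all genes were above 0. None of the 38 bright genes was 2-fold apart, against 1.58%. Col4a2 was at -0.47, Col1a1 at -0.42, Col4a1 at -0.40, Col2a1 at -0.14 and Col17a1 at -0.05. The highest were Col23a1 at 0.35, Col18a1 at 0.34, Col8a2 and Col6a5 at 0.31, Col9a2 at 0.26 and Col26a1 at 0.25, with Col7a1 at 0.16 and Col9a1 at 0.10. A response below 0 in Duox2-/- and above 0 in wild type was found for 19 of 44 collagen genes, 6 of 7 fibrillar, 2 of 8 cartilage and 4 of 10 basement membrane, where 25.5% of all genes showed it. In 7 of the 44 both responses were also beyond the robust SD of their comparison, as in 4.06% of all genes. The median was -0.53 for fibrillar, -0.11 for cartilage and -0.08 for basement membrane genes, and -0.02 over all genes. The 2 responses have no array in common, but each rests on 1 array per group, so the difference has no test. Since chains of a class are not replicates, the classes were not tested against each other either.

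The size of the Duox2-/- response moved with the brightness of the probe set. Over all genes with a mean value near 5 its median was 0.13, and near 9 it was -0.14, while in wild type these were 0.04 and 0.01. The 10 collagen genes with a mean of 8 or more were all lower after flagellin in Duox2-/- and all higher in wild type. Most genes this bright were lower in Duox2-/- as well. Of 3068 genes with a mean from 8 to 9, 804 were above 0 in Duox2-/- and 1478 in wild type. Of 1711 brighter genes 419 and 938 were. The 6 with a mean from 8 to 9 had medians of -0.45 in Duox2-/- and 0.23 in wild type, where 3068 genes of that range had -0.13 and -0.01. The 4 brightest had medians of -0.44 and 0.21, where 1711 genes had -0.12 and 0.01. The 19 genes with a mean from 7 to 8 had 0.08 and 0.09, where 4492 genes had -0.06 and -0.01.

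**Figure D3:**
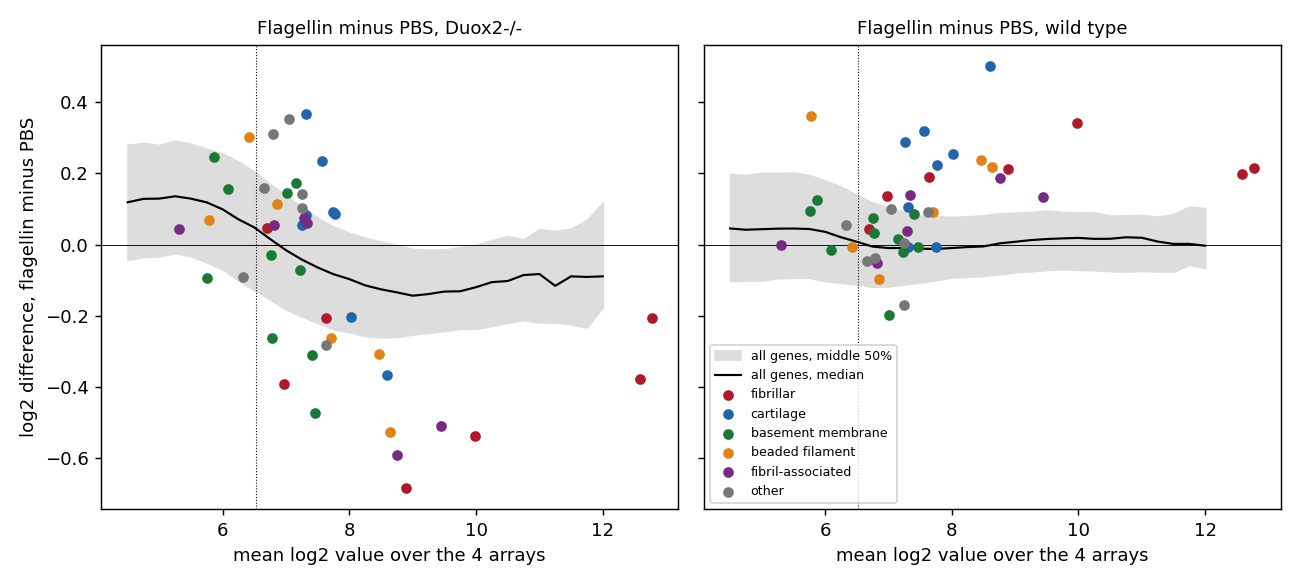
Flagellin minus PBS (log2) against the mean log2 value over the 4 arrays in Duox2-/- (left) and wild type (right); points are the 44 collagen genes by class, the line and band are the median and middle 50% of all genes of like brightness, and the dotted line marks 6.52. The 10 collagen genes at 8 or more lie below 0 on the left, as does the median of all genes that bright, and above 0 on the right.

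Duox2-/- minus wild type after flagellin asks how the genotypes differed in the treated mucosa. Of the 44 genes 31 were above 0, where 50.6% of all genes were. Among them were 7 of 10 basement membrane, 5 of 8 cartilage and 3 of 7 fibrillar genes. Medians were -0.02 for fibrillar, 0.25 for cartilage and 0.16 for basement membrane genes, and 0.01 over all measured genes. Col6a6 was at 0.84, Col26a1 at 0.75, Col6a5 at 0.59, Col22a1 at 0.58, Col9a2 at 0.52, Col13a1 at 0.50, Col7a1 at 0.49 and Col2a1 at 0.32, against Col10a1 at -1.46, Col14a1 at -0.72, Col8a1 of vessel and corneal membranes at -0.49, Col3a1 at -0.29, Col6a1 at -0.28, Col17a1 at -0.22, Col1a2 at -0.20 and Col4a2 at -0.18. Col1a1, Col9a1 and Col11a1 were at -0.02 and Col4a1 at 0.08. Of the 44 genes 6 were higher by at least 0.5, where 13.3% of all genes were, and 2 lower, where 7.18% were. Col10a1 was the 1 gene of the 38 past 2-fold, against 2% of 12471. Of all genes past the filter the median was -0.12, so that a value of 0 lies above the usual gene.

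Under PBS the same contrast asks for the state without flagellin, 4 h after PBS, and collagens of most classes were higher in Duox2-/-. The Duox2-/- PBS array is also subtracted in the Duox2-/- flagellin response and in the difference of the responses. A high value in that array thus enters all of these results, which are not independent. Col6a3 was at 0.90, Col11a1 at 0.85, Col5a2 at 0.72, Col24a1 at 0.70, Col12a1 at 0.68, Col22a1 at 0.66, Col5a1 at 0.63 and Col3a1 at 0.59. Col1a1 was at 0.41, Col1a2 at 0.38, Col4a1 at 0.48, Col2a1 at 0.46, Col7a1 at 0.34, Col4a2 at 0.29 and Col8a2 at 0.02. The genes below 0 were Col10a1 at -1.23, Col17a1 at -0.17, Col9a1 at -0.12, Col8a1 at -0.11 and Col18a1 at -0.09. Of the 44 genes 39 were above 0, where 56.3% of all genes were. By at least 0.5 12 were higher, where 8.17% were, and 1 lower, where 2.38% were. Past 2-fold was again Col10a1 alone of 38, against 1.41%. Medians were 0.59 for fibrillar, 0.39 for cartilage and 0.31 for basement membrane genes, and 0.04 over all genes. In the same array the 10 skeletal muscle genes had a median difference of 2.57 and the 7 tooth genes of 2.08, with mean levels of 7.81 and 6.84 in Duox2-/- PBS, against 5.19 and 4.80 in wild-type PBS. The 8 osteoblast genes had a median of 0.72, with Phex at 1.53 and Ibsp, a bone matrix protein, at 1.22. Their part in the collagen differences was not tested.

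**Figure D4:**
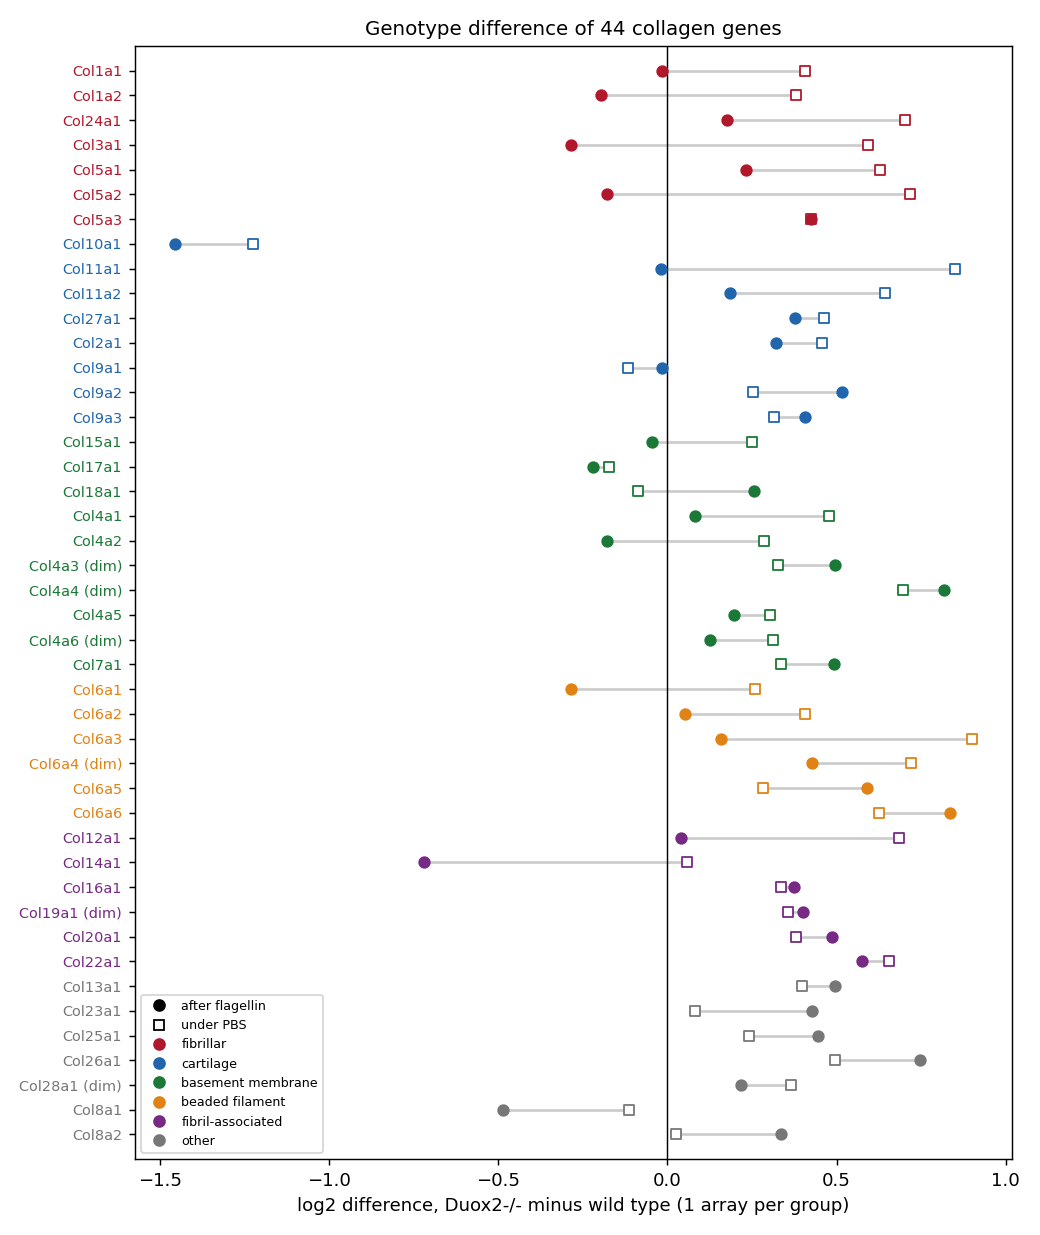
Log2 difference of Duox2-/- minus wild type for each of the 44 collagen genes after flagellin (filled circles) and under PBS (open squares), coloured by class, with 1 array per group. Under PBS 39 genes lie above 0; Col10a1 lies at -1.46 and -1.23, and Col3a1, at -0.29 after flagellin and 0.59 under PBS, has opposite signs.

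In 30 of the 44 genes Duox2-/- was above wild type in both treatments, as in 39.8% of all genes. In 4 it was below in both: Col10a1, Col17a1, Col9a1, which was only at -0.02 after flagellin, and Col8a1. The share of all genes below in both was not counted. Of the 12471 genes past the filter 7197 were lower under PBS and 8333 after flagellin. An additive limma fit over the 4 arrays had a flagellin and a genotype term. Its residual is the difference between the responses, with 1 degree of freedom. Each gene's error was drawn towards a value shared by all genes, an SD of 0.136 with a weight of 7.48 degrees of freedom. The fit thus takes its SEs and p-values mostly from other genes and measures no spread between animals. By its adjusted p (Benjamini-Hochberg over 12471 genes) genotype passed for 4 of the 38 bright collagen genes, where 4.37% of all genes passed. Col10a1 fell by 1.34 on the log2 scale (SE 0.134, adjusted p = 0.00617). The lowest adjusted p of any collagen gene was 0.00164 to 0.0575 over the alternatives. Col6a6 rose by 0.73 (SE 0.133, adjusted p = 0.0302), Col26a1 by 0.62 (SE 0.135, adjusted p = 0.0426) and Col22a1 by 0.62 (SE 0.129, adjusted p = 0.0401). After cyclic loess none of the 4 passed the limma test, and with the arrays centred on their medians Col10a1 alone did. Flagellin passed for 0 of 38, where 0.281% of genes passed, and for 0 at an unadjusted p under 0.05.

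Genes that make, bind and surround collagen were mostly lower after flagellin in Duox2-/-, but so were 51.2% of all genes and 62.2% of those past the filter, and among the 3068 with a mean from 8 to 9 only 804 were above 0. In wild type 47.9% of all genes and 50.4% of those past the filter were lower. Of 21 genes for folding and modifying collagen 20 were lower after flagellin in Duox2-/- and 11 in wild type, with medians of -0.28 and -0.03. Plod2, which hydroxylates lysines for crosslinks, was at -0.71 in Duox2-/- and 0.17 in wild type. Serpinh1, the collagen chaperone, was at -0.10 and 0.24. Lox, the crosslinking oxidase, had 8.13 and 8.54 in Duox2-/- flagellin and PBS, against 8.06 and 7.53 in wild-type flagellin and PBS, so that it too peaked in Duox2-/- PBS. The 14 trimming and crosslinking genes had medians of -0.09 in Duox2-/- and 0.10 in wild type. Of 10 fibril-binding proteoglycans 9 were lower after flagellin in Duox2-/- and 8 higher in wild type, with medians of -0.41 and 0.23. Among them were Ogn at -0.98 and 0.07, Lum at -0.74 and 0.45 and Aspn at -0.67 and 0.24. Of 9 collagen receptor and uptake genes 7 were lower in Duox2-/- and 3 in wild type. Itga1, the integrin chain for type IV collagen, was at -0.70 and 0.02, and Mrc2, which takes up collagen fragments, at -0.56 and 0.03. Of 17 basement membrane partners 15 were lower in Duox2-/- and 7 in wild type, with Nid1, which links laminin to type IV collagen, at -0.71 and 0.09.

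**Figure D5:**
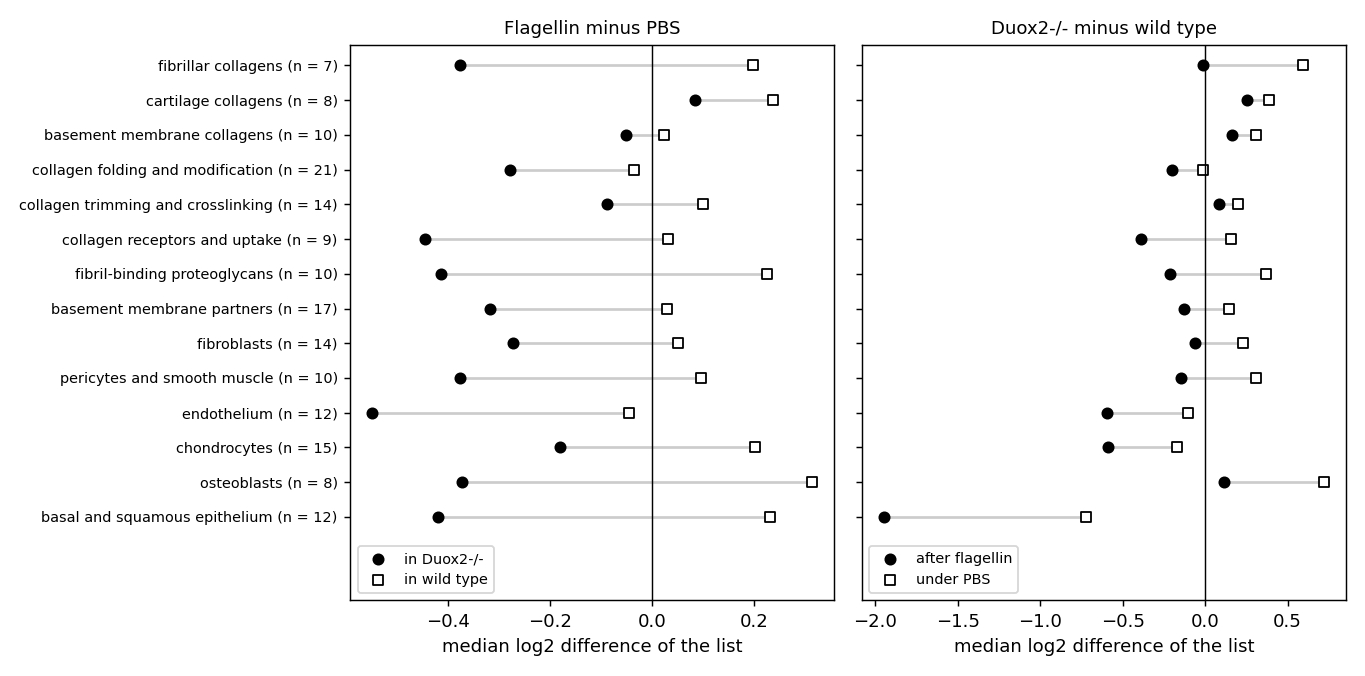
Median log2 difference of 3 collagen classes and 11 fixed gene lists, for flagellin minus PBS (left; Duox2-/- filled, wild type open) and for Duox2-/- minus wild type (right; after flagellin filled, under PBS open), with the number of measured genes in brackets. Fibrillar collagens lie at -0.38 and 0.20 on the left, near the fibril-binding proteoglycans at -0.41 and 0.23.

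Markers of other cells differed between the arrays as well, and their part in the collagen differences was not tested. The 10 skeletal muscle genes were all lower after flagellin in Duox2-/- and all higher in wild type, with medians of -2.11 and 1.37, and their response difference had a median of -3.45. Their mean level was 5.70 and 7.81 in Duox2-/- flagellin and PBS, against 6.69 and 5.19 in wild-type flagellin and PBS. Of 7 tooth genes 6 were lower in Duox2-/- and 4 in wild type, with medians of -1.68 and -0.03, and mean levels of 5.46 and 6.84, against 4.75 and 4.80. Of 14 fibroblast genes 11 were lower after flagellin in Duox2-/- and 6 in wild type, and their mean level was 7.66 and 7.95 in Duox2-/- flagellin and PBS, against 7.77 and 7.71 in wild-type flagellin and PBS. Pdgfra, a fibroblast receptor, was at -0.48 in Duox2-/- and 0.42 in wild type. Of 10 pericyte and smooth muscle genes 9 were lower in Duox2-/- and 3 in wild type, with mean levels of 7.98 and 8.34, against 8.13 and 8.03. Of 12 endothelial genes 11 were lower in Duox2-/- and 8 in wild type, with mean levels of 6.98 and 7.48, against 7.51 and 7.55. Of 15 chondrocyte genes 12 were lower in Duox2-/- and 4 in wild type, with mean levels of 6.25 and 6.45, against 6.88 and 6.61. Of 8 osteoblast genes 7 were lower in Duox2-/- and 1 in wild type, with mean levels of 8.00 and 8.45, against 7.96 and 7.65. Of 8 Schwann and ensheathing glia genes 6 were lower in Duox2-/- and 3 in wild type, with mean levels of 7.40 and 7.54, against 7.71 and 7.64. The 12 macrophage and neutrophil genes had mean levels of 6.56 and 6.62, against 7.30 and 6.33, and all 12 were higher after flagellin in wild type.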

How the data were processed

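The deposited values of 4 Affymetrix mouse arrays are log2 signals, going by their range. The submitters' processing notes name RMA and Affymetrix Expression Console 1.1 as what the authors used. The probe sets' genome build: not given in the sources used here. Of 35556 probe sets 21789 were paired with 1 gene, 1621 with several and 12146 with no listed gene. A gene's value is that of its brightest single-gene probe set, by mean (19938 genes). Genes reaching 6.52 in 1 array (12471) entered the planned counts at 2-fold and the limma fit; counts at 0.5 (1.41-fold), chosen after seeing the data, and above 0 use all genes. Depth does not apply to arrays, and 1 array per group limits the precision. Collagen classes, 17 further lists (200 of 210 genes measured), members, tests and alternatives were chosen with earlier results of these data known. The naming rule took bright collagen genes, in each comparison the 6 highest, the 6 lowest and 10 main chains, and up to 4 genes of each list with the largest difference in a comparison; dim ones are named as such. Col10a1's host gene was added after its values were seen. The fit used limma 3.58.1 in R 4.3.3 (lmFit, eBayes) with adjusted p at most 0.05 and was tested on simulated data; other work used Python 3.11.15 with pandas 2.3.3, numpy 2.4.6 and matplotlib 3.10.9. Promoter sequences are those of RefSeq, GRCm38.p6, matched by symbol for 35 genes. Alternatives were median centring, quantile normalisation, cyclic loess, the mean of all probe sets, no filter and a stricter filter.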

Additional observations from a re-analysis of the deposited data

Results flagged for a closer look

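In 7 collagen genes the flagellin response was below 0 in Duox2-/- and above 0 in wild type, each beyond the robust SD of its comparison over all genes; with 1 array per group the difference was not tested. The same held for 4.06% of all 19938 genes. The response in Duox2-/- minus that in wild type was -0.90 for Col5a2, -0.88 for Col3a1, -0.87 for Col11a1, -0.78 for Col14a1, -0.74 for Col6a3, -0.58 for Col1a2 and -0.54 for Col6a1. Of these 4 belong to connective tissue fibrils or their coat (Col1a2, Col3a1, Col5a2 and Col14a1), 1 to cartilage fibrils and 2 to microfilaments. None of the 10 basement membrane genes met the same sizes.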

How the results depend on the processing

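No paired analysis was possible because each group has 1 array. Of the planned recomputed values 156 stayed close to the reported ones, but some of these could not move. Only Col6a5 and Col6a6 have a second probe set, and every fibrillar and cartilage gene passes the filter. The fibrillar and cartilage medians are therefore the same by design with the mean of all probe sets and with no filter. The median of the collagen genes for flagellin minus PBS in Duox2-/- is 0.01 over 38 genes and turned to -0.26 under the stricter filter on dim genes, which keeps 23 of them; the basement membrane median was then -0.39. The median difference of the responses was then -0.40 for collagen genes and -0.43 for basement membrane collagens. Genotype passed the additive limma fit for 4 collagen genes, for 1 after median centring and for 0 after cyclic loess (limma; 22 had an unadjusted p under 0.05, and the lowest adjusted p was 0.0575, within 0.00164 to 0.0575 over all settings); over all genes these counts were 545, 161 and 1. The fibrillar medians kept their sign under every alternative for the responses (-0.38 to -0.31 in Duox2-/-, 0.17 to 0.22 in wild type) and under PBS (0.51 to 0.64), but not after flagellin (-0.18 to 0.02). Counted at 0.5 instead of 2-fold over all 44 genes, 5 genes passed for flagellin in Duox2-/-, all lower. Of all genes 4.12% were lower by that size and 2.56% higher. In wild type 1 passed, which was higher, where 3.55% of all genes were higher and 0.928% lower. By genotype after flagellin 8 passed, 6 higher and 2 lower, where 13.3% and 7.18% of all genes were. Under PBS 13 passed, 12 higher and 1 lower, where 8.17% and 2.38% were. In the difference of the responses 9 passed, all lower, where 7.86% were lower and 3.96% higher. Dim genes such as Col4a3, Col4a4 and Col4a6 carry less information.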
